A study of Mus musculus with 9 samples.

Results

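The genes described here code for the machinery that makes ribosomes in the nucleolus: subunits of RNA polymerase I and the factor that recruits it to ribosomal DNA, nucleolar scaffold proteins, the small nucleolar ribonucleoproteins that modify ribosomal RNA, and the assembly factors of the small and the large ribosomal subunit. The set held 50 genes, given by symbol for this pathway and matched to the platform annotation, and for each the probe set with the highest mean over all 9 arrays was used. Of these, 49 had a probe set of their own among the 12828 genes tested. The remaining gene, Mrto4, an assembly factor of the large subunit, was matched only by a probe set shared with other symbols and was not analysed here.

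Expression was measured on Affymetrix arrays in mouse pre-B cells with the genotype IRF4,8 -/-, in 3 groups of 3 arrays. Low IL-7 cells were cultured with 0.25 ng of the cytokine IL-7 per unit volume, +IRF4 cells had the transcription factor IRF4 put back while they were kept in high IL-7, and high IL-7 cells were cultured with 5 ng per unit volume (the labels disagree on whether the volume is a millilitre or a microlitre). Every group carries the deletion of both transcription factors, so high IL-7 cells are the reference for a lower cytokine dose and for IRF4, not wild-type cells. How IRF4 was put back, the length of culture and a control vector are not given in the sources used here, and nothing in the labels says whether replicates were separate cultures or animals, so each p-value reflects array-to-array spread, which may be technical.

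Ribosome production starts when RNA polymerase I copies the ribosomal DNA into a long precursor. Box C/D and box H/ACA particles modify that precursor, the SSU processome cuts out the small-subunit rRNA, and the PeBoW complex with many helicases and GTPases builds the large subunit. In growing lymphoid cells the genes of this pathway are well-known targets of the transcription factor MYC, and IL-7 is the cytokine that keeps early B-lineage cells dividing.

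Values below are log2(intensity + 16), written as log2 levels, and a change is a difference of group means on that scale. A gene was called at an adjusted p under 0.05, from limma's moderated test with Benjamini-Hochberg adjustment over all 12828 genes. Levels of different probe sets depend on their probes, so each gene is compared only with itself across arrays. Array medians lay between an intensity of 139.7 and 151.3, a span of 0.11 on the log2 scale. They were 145.4, 151.3 and 150.4 in low IL-7 cells, 142.3, 142.1 and 140.9 in +IRF4 cells, and 139.7, 151.2 and 143.4 in high IL-7 cells, so the low IL-7 medians all lay above those of +IRF4 cells. The dimmer of 2 probe sets for Irf4, which was chosen after its values were seen, had levels of 8.37, 8.16 and 8.09 in low IL-7 cells, 10.11, 10.45 and 11.32 in +IRF4 cells, and 8.63, 7.77 and 8.11 in high IL-7 cells. The brighter Irf4 probe set was at 11.86, 11.86 and 12.06 in +IRF4 cells, against 12.50, 12.21 and 12.28 in high IL-7 cells, and 12.96, 12.95 and 12.81 in low IL-7 cells. Both Irf8 probe sets lay between 10.95 and 12.12 on all 9 arrays. Where these probe sets lie relative to the deleted part of the gene is not known here, so none of them checks the genotype. The mean level of the 3 control probe sets for 18S rRNA was 6.41 on +IRF4 replicate 3 and 6.53 on high IL-7 replicate 1, against 7.70 to 8.49 on the other 7 arrays, and results that rest on these arrays are also given without them.

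Lowering IL-7 was accompanied by lower signal for the whole set. The members were chosen with earlier results of these data known, so the counts of the set, here and below, are descriptions. All 49 genes were lower in low IL-7 than in high IL-7 cells at adjusted p under 0.05, where 19.5% of all genes tested were lower, and 39 of them were at least 2-fold lower, against 4% of all genes. The median change was -1.33 over the set and 0.02 over all genes, with a range from -2.18 for Rrp1b to -0.44 for Nop14 and a highest adjusted p of 0.00258. For all 49 genes the 3 low IL-7 arrays lay below the 3 high IL-7 arrays, which held for 24.7% of all genes, and for none did they lie above, against 25.4%. Each array measured the RNA of many cells together, so fewer cells of a type and less RNA per cell cannot be told apart.

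**Figure D1:**
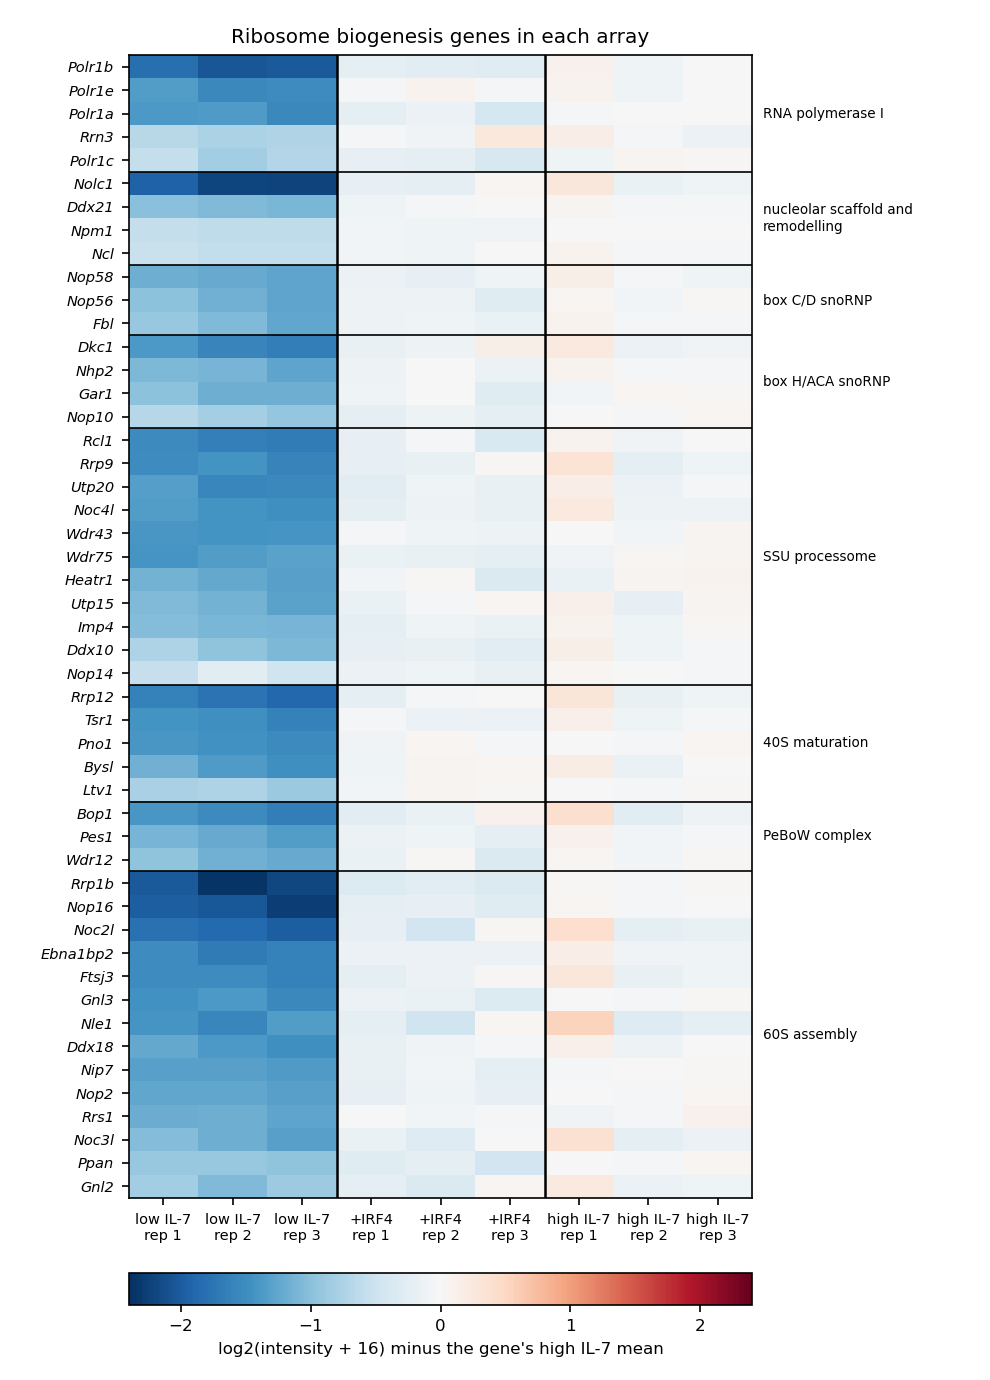
Level of each of the 49 genes on each of the 9 arrays, as the log2 difference from that gene's mean over the high IL-7 arrays (colour), with arrays in columns (low IL-7, +IRF4, high IL-7) and genes in rows by role. The low IL-7 columns average -1.21, -1.30 and -1.36, the +IRF4 columns -0.16, -0.13 and -0.13, and the high IL-7 columns 0.11, -0.08 and -0.02.

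Markers of the B lineage and of other cells moved between the groups too. Of 10 B-lineage markers 9 had a probe set, and 6 of these 9 were called higher in low IL-7 than in high IL-7 cells, against 17.8% of all genes, with summed intensities of 69293 to 72700.5 in low IL-7, 48030 to 50861 in +IRF4 and 42281 to 51721 in high IL-7 cells. Stromal markers, 15 of 15 with a probe set and 12 above the filter on dim probe sets, summed to 5950 to 11737 in low IL-7, 6232 to 21943 in +IRF4 and 8471 to 31520 in high IL-7 cells. Erythroid and megakaryocyte markers, 6 of 8 with a probe set and 3 above the filter, summed to 9221 to 10403 in low IL-7, 10117 to 10865 in +IRF4 and 15176 to 15749 in high IL-7 cells. The B-lineage sum was thus highest in low IL-7 cells, but it joins genes that changed by unlike amounts. In low IL-7 over high IL-7 cells Rag1 rose most (4.67), then Blnk (1.42) and Vpreb3 (1.11). Pax5 (0.41), Cd79a (0.30) and Igll1 (0.14) were not called. Erythroid and megakaryocyte sums of low IL-7 and +IRF4 cells overlapped, and both lay below those of high IL-7 cells. Stromal sums overlapped between all groups, yet the median change of the 12 stromal markers was -1.58 in low IL-7 over high IL-7 cells. Of these 12, 3 were called lower and 1 higher, against 19.5% and 17.8% of all genes. In +IRF4 over high IL-7 cells their median change was -0.90 and none was called. Myeloid markers (12 of 13) summed to 3222 to 3324, 3807 to 4183 and 2498 to 3013 in the same order of groups, and T-cell markers (8 of 10) to 1927 to 2159, 1704 to 1908 and 1921 to 2242. No marker with a probe set was listed at 0, and the part of these markers in the result was not tested.

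The largest falls were in Rrp1b, Nolc1, Nop16 and Polr1b. Rrp1b, a nucleolar protein of large-subunit assembly, had levels of 8.55, 8.22 and 8.39 in low IL-7 cells, against 10.59, 10.53 and 10.60 in high IL-7 cells. It was 4.55-fold lower (-2.18, SE 0.10, limma adjusted p = 2.62e-07), and the gap between the groups exceeded the spread within either. Nolc1 (Nopp140), a chaperone that shuttles small nucleolar ribonucleoproteins, was at 9.67, 9.41 and 9.39 in low IL-7 cells, against 11.88, 11.44 and 11.50 in high IL-7 cells, a 4.34-fold fall (-2.12, SE 0.13). High IL-7 replicate 1 stood above its group there. Nop16, needed for large-subunit precursors, was at 9.13, 9.07 and 8.85 in low IL-7 cells, against 11.15, 11.06 and 11.10 in high IL-7 cells, 4.27-fold lower. The other Nop16 probe set above the filter changed by only -0.50. On the probe sets used, the groups of all 3 genes lay far apart compared with the spread of their arrays.

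The promoters of these 3 genes are shown because they fell furthest on the probe sets used. Each runs 5′ to 3′ on the gene's strand over 300 bases, from 250 before the annotated start to 50 after it, from RefSeq on build GRCm38.p6. Capitals mark matches, on either strand, to an ETS motif (CCGGAAG), the CCAAT box (CCAAT) or the GC box (GGGCGG).
Rrp1b, chr17:32035912-32036211, plus strand: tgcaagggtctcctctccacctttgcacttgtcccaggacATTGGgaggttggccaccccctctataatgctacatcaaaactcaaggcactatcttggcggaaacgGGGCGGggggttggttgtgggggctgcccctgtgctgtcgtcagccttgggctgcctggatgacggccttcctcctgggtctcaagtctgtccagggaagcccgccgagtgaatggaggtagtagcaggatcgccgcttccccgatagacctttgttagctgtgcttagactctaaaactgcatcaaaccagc
Nolc1, chr19:46075597-46075896, plus strand: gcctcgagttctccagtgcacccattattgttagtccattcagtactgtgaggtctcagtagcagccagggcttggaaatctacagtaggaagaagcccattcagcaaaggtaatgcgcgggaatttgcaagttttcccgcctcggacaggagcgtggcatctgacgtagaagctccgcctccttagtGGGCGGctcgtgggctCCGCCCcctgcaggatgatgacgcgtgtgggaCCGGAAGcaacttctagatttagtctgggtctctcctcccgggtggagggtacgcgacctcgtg
Nop16, chr13:54590025-54590324, minus strand: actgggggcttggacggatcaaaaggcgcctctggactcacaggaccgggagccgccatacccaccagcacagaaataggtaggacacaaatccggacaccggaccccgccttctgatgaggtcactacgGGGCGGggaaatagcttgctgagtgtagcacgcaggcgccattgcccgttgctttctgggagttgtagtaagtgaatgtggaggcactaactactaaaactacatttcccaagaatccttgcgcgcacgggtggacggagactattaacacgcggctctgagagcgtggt
Rrp1b's window held a CCAAT box on the opposite strand and a GC box, Nolc1's an ETS motif and 2 GC boxes, and Nop16's a GC box. None of these 3 windows held the letters CACGTG, the E-box that MYC and other factors of its class bind. These are matches of letters and not measured sites.

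**Figure D2:**
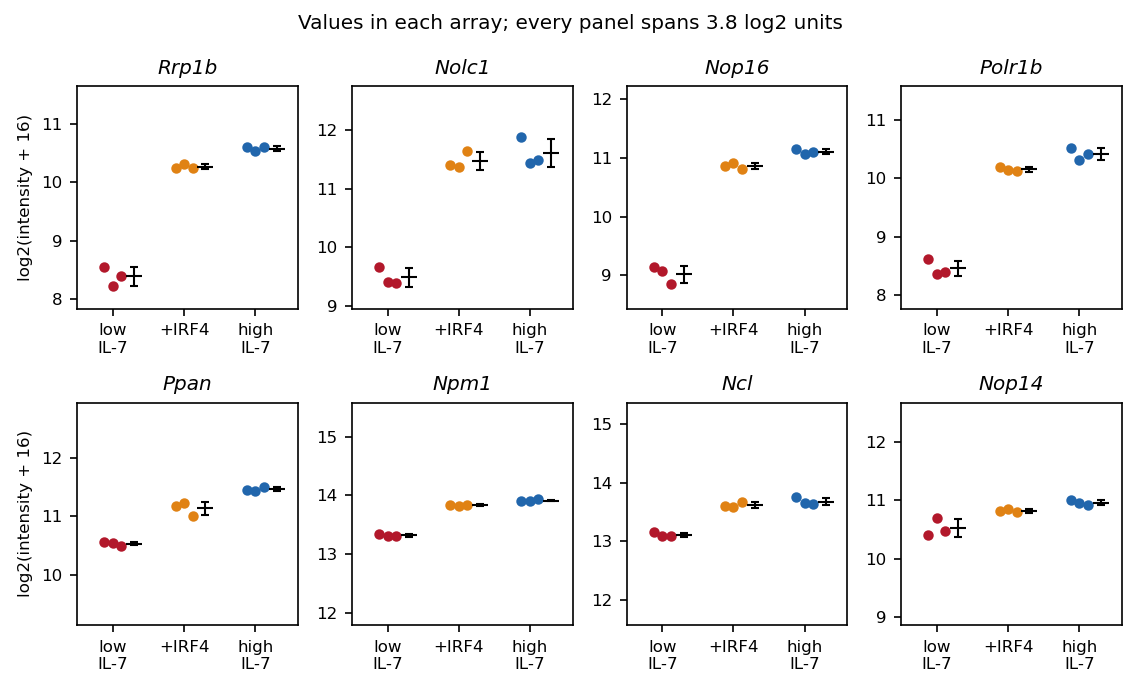
Log2 levels of 8 genes on each array, low IL-7, +IRF4 and high IL-7 from left to right, with points for arrays and black bars for group means with the SD (n = 3). In each panel the 3 low IL-7 points lie below the other 6, by much for Rrp1b, Nolc1, Nop16 and Polr1b and by little for Nop14.

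All 5 genes of the RNA polymerase I group fell in low IL-7 cells, with a median change of -1.43. Polr1b, the second-largest subunit, was at 8.61, 8.37 and 8.40 in low IL-7 cells, against 10.52, 10.31 and 10.41 in high IL-7 cells, 3.88-fold lower (-1.95, SE 0.10). Polr1a, the largest and catalytic subunit, was at 8.97, 8.99 and 8.80, against 10.31, 10.36 and 10.36, and changed by -1.43. Polr1e, a subunit specific to RNA polymerase I, was at 8.02, 7.82 and 7.84 in low IL-7 cells and at 9.43, 9.26 and 9.37 in high IL-7 cells (-1.47). These 3 subunits each fell by 2.69-fold or more, whereas further polymerase I subunits outside the set changed by less, as described with the other polymerase genes. The changes were smaller for Polr1c, a subunit shared with RNA polymerase III, at 10.15, 9.89 and 10.02 in low IL-7 cells, against 10.62, 10.79 and 10.76 in high IL-7 cells (-0.70, SE 0.10, adjusted p = 0.000208 by limma). Rrn3 (TIF-IA), the initiation factor that brings the polymerase to the ribosomal DNA promoter, was at 8.50, 8.41 and 8.44 in low IL-7 cells, against 9.32, 9.14 and 9.03 in high IL-7 cells (-0.71, SE 0.11).

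Nucleolar scaffold and remodelling genes held both the second-largest and some of the smallest falls of the set. Beside Nolc1, the RNA helicase Ddx21 changed by -1.06, with levels of 10.73, 10.68 and 10.64 in low IL-7 cells, against 11.80, 11.70 and 11.72 in high IL-7 cells. Npm1 (nucleophosmin), a histone chaperone and scaffold of the nucleolus, was at 13.34, 13.30 and 13.30 in low IL-7 cells, against 13.90, 13.90 and 13.93 in high IL-7 cells, 1.51-fold lower (-0.60, SE 0.03). Ncl (nucleolin), which binds nascent pre-rRNA, was at 13.15, 13.09 and 13.08 in low IL-7 cells, against 13.75, 13.65 and 13.63 in high IL-7 cells, 1.48-fold lower (-0.57, SE 0.04). Both lay near the top of the scale, where the highest value of the table is 14.60, and the probe set decided their size: 4 further Ncl probe sets changed by -1.35, -1.06, -0.80 and -0.43, and the other Npm1 probe set by -0.39.

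The small nucleolar ribonucleoproteins that guide modification of rRNA were all lower, by similar amounts in the box C/D class and by more varied amounts in the box H/ACA class. In the box C/D class, Fbl (fibrillarin), the 2'-O-methyltransferase, changed by -1.07, and its partners Nop56 and Nop58 by -1.13 and -1.21. Fbl was at 12.06, 11.90 and 11.70 in low IL-7 cells, against 13.04, 12.93 and 12.91 in high IL-7 cells. In the box H/ACA class, which converts uridine to pseudouridine, Dkc1 (dyskerin), the pseudouridine synthase, fell most, by 1.54, with 10.95, 10.74 and 10.65 in low IL-7 cells, against 12.55, 12.17 and 12.24 in high IL-7 cells. The accessory proteins Nhp2, Gar1 and Nop10 changed by -1.15, -1.11 and -0.81. All 7 genes of the 2 classes were called.

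Of the SSU processome, which processes the small-subunit rRNA, all 11 genes were lower, with a median of -1.34. The fall was largest for Rcl1, at 8.83, 8.72 and 8.68 in low IL-7 cells, against 10.43, 10.27 and 10.36 in high IL-7 cells (-1.61, SE 0.10). Rrp9, a protein of the U3 particle, followed at -1.52, Utp20 at -1.48, and Wdr43 and Noc4l at -1.41 each. Wdr75 (-1.34), Heatr1 (-1.22) and Utp15 (-1.16), which with Wdr43 belong to the early-binding part of the complex, changed by similar amounts, as did Imp4 (-1.08), a partner of the U3 particle. The helicase Ddx10 changed by -0.93. Nop14 had the smallest change of the 49, with 10.40, 10.70 and 10.48 in low IL-7 cells, against 11.00, 10.95 and 10.93 in high IL-7 cells (-0.44, 95% interval -0.63 to -0.24). Its low IL-7 arrays spread more than its high IL-7 arrays, but the 2 groups did not overlap.

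The 5 genes of late 40S maturation had a median change of -1.46. Rrp12 was at 7.47, 7.33 and 7.20 in low IL-7 cells, against 9.38, 8.92 and 8.99 in high IL-7 cells, 3.39-fold lower (-1.76, SE 0.13). Tsr1, a GTPase-like factor on the late small-subunit precursor, changed by -1.51, the RNA-binding factor Pno1 by -1.46 and Bysl (bystin) by -1.33. Ltv1, an export-linked factor that leaves late, changed least, with 10.75, 10.79 and 10.64 in low IL-7 cells, against 11.53, 11.50 and 11.57 in high IL-7 cells (-0.80, SE 0.07).

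Large-subunit assembly genes were lower as a group as well. In the PeBoW complex, needed for maturation of the large-subunit rRNAs, Bop1 changed by -1.53, Pes1 (pescadillo) by -1.21 and Wdr12 by -1.11. Bop1 was at 9.14, 9.02 and 8.88 in low IL-7 cells, against 10.93, 10.27 and 10.43 in high IL-7 cells, where replicate 1 stood apart from the others. The other 14 large-subunit genes analysed had a median change of -1.40. Beside Rrp1b and Nop16, Noc2l changed by -1.87, Ebna1bp2 by -1.61, the methyltransferase Ftsj3 by -1.54, and the GTPase Gnl3 (nucleostemin) by -1.46. Gnl3 was at 11.19, 11.27 and 11.09 in low IL-7 cells, against 12.65, 12.61 and 12.67 in high IL-7 cells. Nle1 (-1.44), the helicase Ddx18 (-1.36), Nip7 (-1.33), the rRNA methyltransferase Nop2 (-1.27), Rrs1 (-1.21) and Noc3l (-1.17) lay near the middle of the set. Ppan was at 10.55, 10.55 and 10.49 in low IL-7 cells, against 11.45, 11.43 and 11.50 in high IL-7 cells (-0.93), and the GTPase Gnl2 changed by -0.92.

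**Figure D3:**
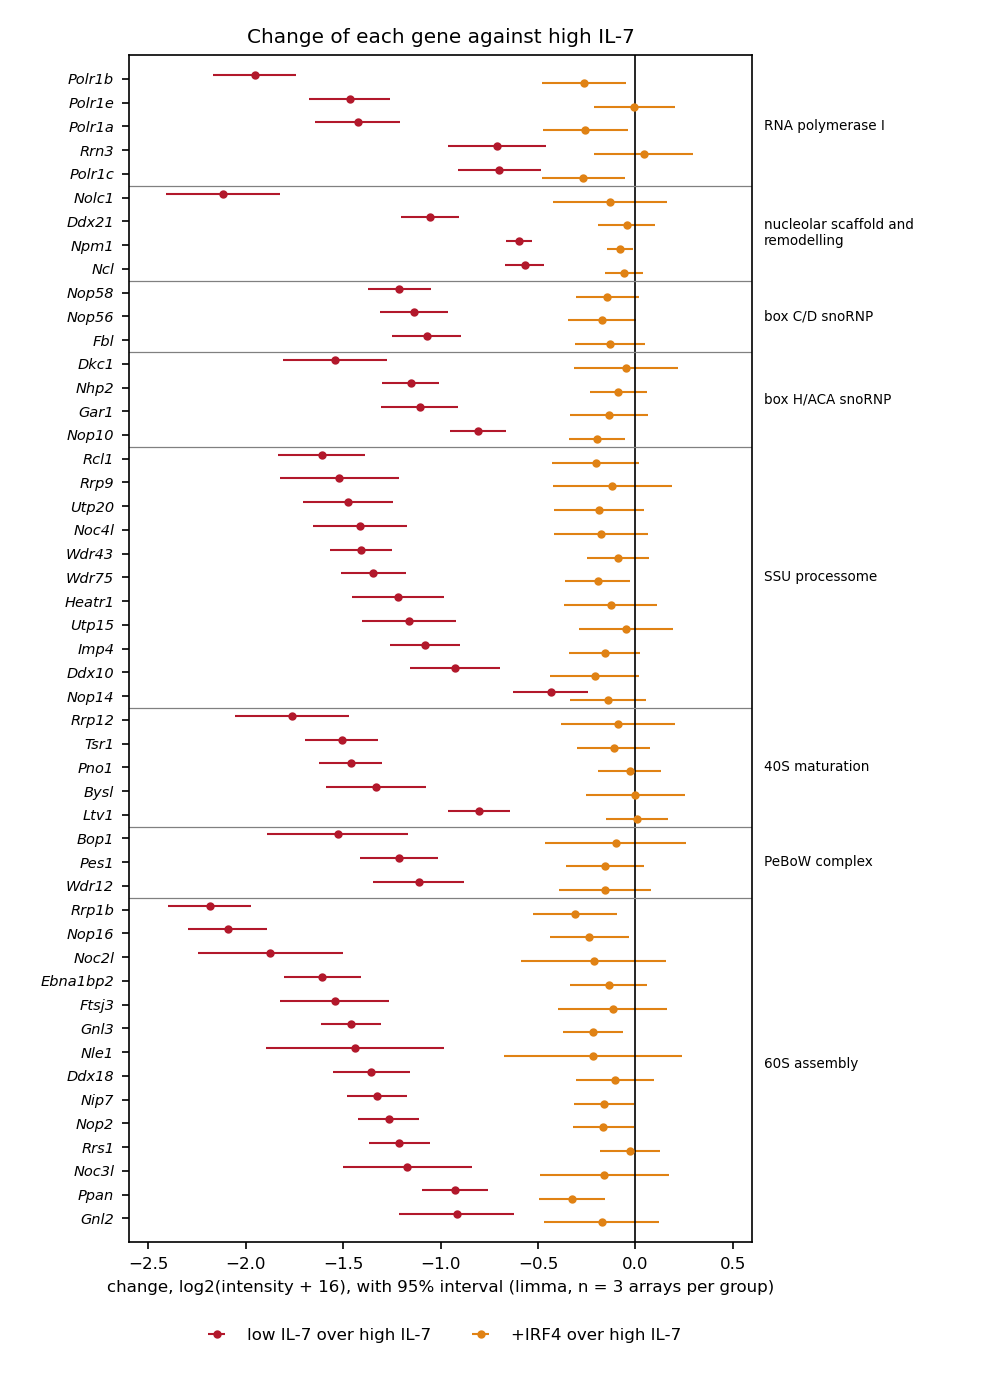
Log2 change of each of the 49 genes with its 95% interval from limma, in rows by role, for low IL-7 over high IL-7 and for +IRF4 over high IL-7. In low IL-7 over high IL-7 every interval lies below 0, from -2.18 for Rrp1b to -0.44 for Nop14, while the +IRF4 over high IL-7 values lie between -0.33 and 0.04.

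Further probe sets of the same genes mostly moved alike. Above the filter, 33 of the 49 genes had more than 1 probe set, which gave 47 further ones, and over the fit to all 27024 probe sets 42 of these were lower in low IL-7 than in high IL-7 cells, none was higher and 5 were not called. The 5 belonged to Heatr1 (-0.12), Bop1 (-0.10), Gnl2 (-0.06), Nip7 (-0.28) and Ebna1bp2 (0.04), whose brightest probe sets were called, so these genes' values differ between probe sets. Called probe sets differed in size too. Further ones of Nop16 and Noc2l changed by -0.50 and -0.36, against -2.09 and -1.87 for those used. Ones of Polr1a and Wdr75 changed by -0.37 and -0.32, against -1.43 and -1.34. Ones of Ddx21 and Nop56 fell by more than those used, with -1.71 and -1.63 against -1.06 and -1.13. Of the probe sets used, 6 carry the suffix s_at and 1 the suffix x_at, which mark probes that may also match other transcripts. In +IRF4 over high IL-7 cells, 1 of the 47 further probe sets was called, a second one of Heatr1 that was lower (-0.54, limma adjusted p = 0.0177 over all probe sets), while the Heatr1 probe set used changed by -0.13 and was not called.

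With IRF4 put back in high IL-7, the changes over the set were small. Of the 49 genes 1 was lower at adjusted p under 0.05, where 1.01% of all genes tested were lower, and none was higher, against 1.92%; changes in either direction made up 2.93% of all genes. None of the 49 was at least 2-fold lower, against 0.179% of all genes. That gene was Ppan, at 11.17, 11.22 and 11.00 in +IRF4 cells, against 11.45, 11.43 and 11.50 in high IL-7 cells (-0.33, SE 0.08, limma adjusted p = 0.0499), or 1.25-fold lower. The call sits at the threshold and was lost without any 1 of the 9 arrays (adjusted p from 0.0536 to 0.211), although the 2 groups did not overlap. With array weights 11 of the 49 were called, all lower, in a fit that called 3248 of all 12828 genes, against 376 without weights. An unadjusted p under 0.05 was reached by 12 of the 49 genes, against 15% of all genes in either direction.

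The changes with IRF4 were small and leaned to one side. Over the 49 probe sets used they ranged from -0.33 to 0.04 with a median of -0.14, against -0.01 over all genes, and 47 of the 49 were below 0, against 52.2% of all genes. All +IRF4 arrays lay below all high IL-7 arrays for 19 of the 49 genes, against 11% of all genes, and above them for none, against 9.99%. After Ppan, the most negative were Rrp1b, at 10.24, 10.32 and 10.23 in +IRF4 cells, against 10.59, 10.53 and 10.60 in high IL-7 cells (-0.31, adjusted p = 0.143 by limma), and Polr1c, at 10.52, 10.49 and 10.35, against 10.62, 10.79 and 10.76 (-0.27, adjusted p = 0.214 by limma). Neither pair of groups overlapped, and neither change was called. Rrn3 (0.04) and Ltv1 (0.01) were the 2 genes above 0, and Bysl and Polr1e were within 0.01 of it.

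The size of these changes depended on the arrays used, and most on high IL-7 replicate 1. The median change was -0.19 without high IL-7 replicate 2 and -0.16 without high IL-7 replicate 3, against -0.14 with all arrays. High IL-7 replicate 1 was the highest of its group for 33 genes, and for 16 of these +IRF4 replicate 3, the other array with low 18S signal, was the highest of its own group. Nle1 shows the pattern, with 9.37, 9.11 and 9.65 in +IRF4 cells, against 10.12, 9.29 and 9.38 in high IL-7 cells, and so does Noc2l, with 10.93, 10.66 and 11.14 in +IRF4 cells, against 11.52, 10.90 and 10.95 in high IL-7 cells. Without high IL-7 replicate 1 the median change was -0.07 and 36 of the 49 were below 0, and with both low-18S arrays left out it was -0.08 with 45 below 0. None of the 49 was called in either fit, and all 49 remained called lower in low IL-7 than in high IL-7 cells. The part of 18S signal in these values was not tested.

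Low IL-7 cells also differed from +IRF4 cells, which were kept in the high dose. All 49 genes were lower in low IL-7 than in +IRF4 cells, where 18.6% of all genes tested were lower, and 34 of them were at least 2-fold lower, against 2.89% of all genes. The median change was -1.16 over the set and -0.00 over all genes. On the probe sets used, no gene's low IL-7 arrays overlapped its +IRF4 arrays, with low IL-7 below in each case, which held for 24.4% of all genes and the opposite order for 23.5%. Most further probe sets were called lower too. Ones of Gnl2 (0.22), Bop1 (0.15), Heatr1 (0.09) and Wdr75 (0.06) lay above 0 and were not called. Ones of Polr1c (-0.41), Ddx18 (-0.26), Nip7 (-0.22), Ebna1bp2 (-0.21) and Noc2l (-0.19) were not called either. This comparison and that with high IL-7 share the low IL-7 arrays, so their values stand side by side and do not support each other.

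The order of the falls can be read from the genes already described. Nolc1 had the largest, at 9.67, 9.41 and 9.39 in low IL-7 cells, against 11.41, 11.37 and 11.65 in +IRF4 cells (-1.99). Rrp1b (-1.87), Nop16 (-1.86), Polr1b (-1.69), Rrp12 (-1.67) and Noc2l (-1.66) came next. The role groups had medians of -1.17 for RNA polymerase I, -0.76 for scaffold and remodelling genes, -0.96 and -1.02 for box C/D and box H/ACA proteins, -1.15 for the SSU processome, -1.40 for 40S maturation, -1.06 for PeBoW and -1.23 for the other large-subunit genes. Nop14 had the smallest change, at 10.40, 10.70 and 10.48 in low IL-7 cells, against 10.82, 10.86 and 10.79 in +IRF4 cells (-0.30, limma adjusted p = 0.0224). Nop14's call was lost without low IL-7 replicate 1 or 3 or +IRF4 replicate 1 or 2 (adjusted p from 0.052 to 0.0838) and under quantile normalization (-0.23, adjusted p = 0.111).

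Genes of the same pathway outside the set moved the same way in most cases, with smaller median changes. Of 35 other SSU processome and 40S factors tested, 31 were lower in low IL-7 than in high IL-7 cells and none was higher, against 19.5% lower and 17.8% higher over all genes, with a median of -0.76. The largest falls were in the rRNA acetyltransferase Nat10 (-1.72), Utp18 (-1.47) and Utp4 (-1.47). Against the same shares, 41 of 45 other 60S factors were lower and 3 higher, with a median of -0.85. Rrp15 (-1.71), the giant ATPase Mdn1 (-1.63) and Lyar (-1.59) fell most, while among the called genes the helicase Ddx54 (0.40) and Nop53 (0.29) rose most. Zfp622, at 0.50, was not called (limma adjusted p = 0.0504). Of 14 genes of the RNA exosome, which trims and degrades rRNA precursors, and its cofactors, 13 were lower and none higher, again beside 19.5% and 17.8%, with a median of -0.58 and the largest falls in Exosc2 (-1.32), Exosc1 (-1.28) and Exosc7 (-1.21). These lists were chosen with earlier results of these data known, so their counts are descriptions.

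The polymerases themselves were less uniform. Of 13 further genes of RNA polymerase I and of ribosomal DNA transcription, 7 were lower in low IL-7 than in high IL-7 cells, 1 was higher and 5 were not called, against 19.5% lower and 17.8% higher over all genes, with a median of -0.47. The shared subunits Polr2f (-1.21) and Polr2h (-1.05) and the polymerase I subunit Cd3eap (Polr1g, -1.07) fell most. Of the other subunits specific to RNA polymerase I, Twistnb (Polr1f) fell by 0.47 and Znrd1 (Polr1h) differed by 0.07 and was not called. Ubtf, the upstream binding factor of ribosomal DNA, was at 10.72, 10.50 and 10.51 in low IL-7 cells, against 11.25, 10.99 and 11.05 in high IL-7 cells (-0.52, limma adjusted p = 0.00133), and was named after its value was seen. Ttf1, the terminator of RNA polymerase I, was at 10.17, 10.04 and 10.07 in low IL-7 cells, against 9.73, 9.76 and 9.61 in high IL-7 cells, and rose by 0.40. Of 21 genes of RNA polymerase III, which makes 5S rRNA and tRNAs, 11 were lower and 2 higher, against the same 19.5% and 17.8% over all genes, with a median of -0.31. Polr3e (-1.47), Polr3g (-1.18) and Polr3k (-0.76) fell most. Maf1, the repressor of RNA polymerase III, was at 11.84, 11.76 and 11.62 in low IL-7 cells, against 11.15, 11.08 and 11.13 in high IL-7 cells, and rose by 0.62 (SE 0.10). Polr3gl, the paralogue of Polr3g, rose by 0.38, with 8.91, 8.74 and 8.86 in low IL-7 cells, against 8.52, 8.44 and 8.42 in high IL-7 cells. The 2 paralogues thus moved in opposite directions.

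In +IRF4 cells none of these 5 lists held a gene called against high IL-7 cells. By list the number with an unadjusted p under 0.05 was 6 of 35 for the SSU and 40S factors, 4 of 45 for the 60S factors, 1 of 14 for the exosome, 2 of 13 for RNA polymerase I and 2 of 21 for RNA polymerase III, against 15% of all genes. Their median changes were -0.10, -0.11, -0.08, -0.08 and -0.04. In low IL-7 over +IRF4, 30, 37, 12, 7 and 10 genes of the same lists were lower and 0, 1, 0, 1 and 2 were higher, against 18.6% lower and 17.7% higher over all genes.

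**Figure D4:**
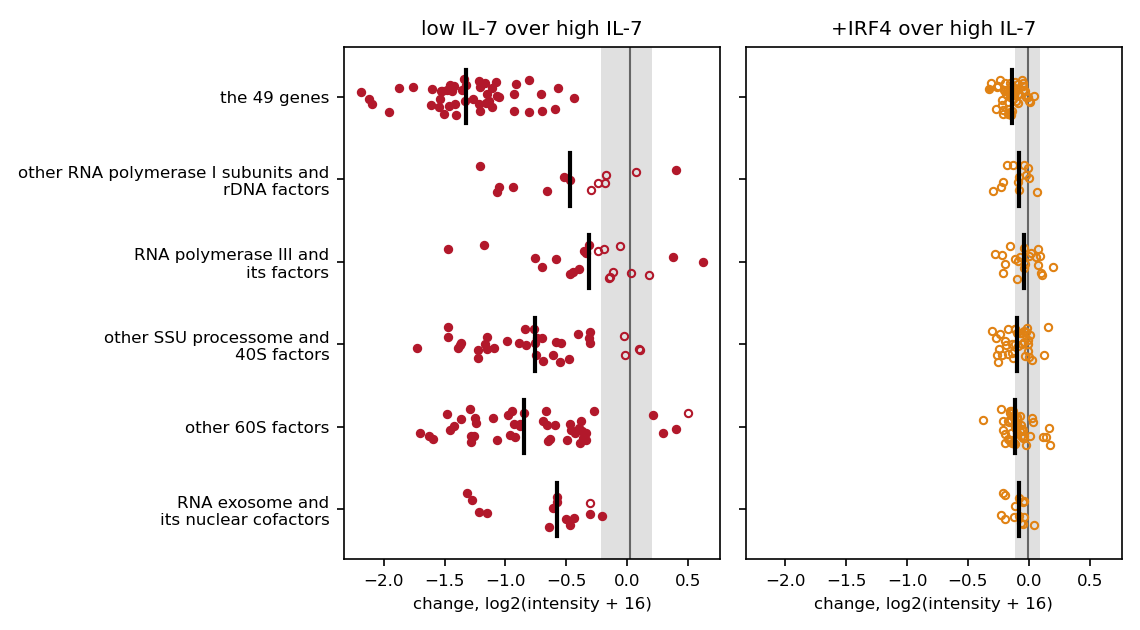
Log2 changes of the genes of the set and of the other pathway lists, a point per gene, for low IL-7 over high IL-7 and for +IRF4 over high IL-7; filled points were called at adjusted p under 0.05, black bars are list medians, and the grey line and band are the median and quartiles of all 12828 genes. In low IL-7 over high IL-7 the set's median is -1.33, against -0.85 for the other 60S factors, -0.47 for the other polymerase I genes and 0.02 for all genes.

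Myc, which codes for a transcription factor that acts on many ribosome biogenesis genes, changed by more than the range of the set. It was at 9.05, 9.43 and 8.98 in low IL-7 cells, against 12.16, 11.44 and 11.82 in high IL-7 cells (-2.66, SE 0.17, limma adjusted p = 1.46e-06). In +IRF4 cells Myc was at 11.53, 11.31 and 11.43, a change of -0.39 that was not called (adjusted p = 0.327 by limma). Of 11 genes of the MYC network tested, 2 were lower in low IL-7 than in high IL-7 cells, Myc and its partner Max (-0.39), and 3 were higher, close to the 19.5% lower and 17.8% higher over all genes. Mxd4 (1.56) and Mxd3 (1.02), which code for MAX-binding repressors, rose most, and Mxd3 was also called higher in +IRF4 than in high IL-7 cells (0.58).

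Mycn, the MYC paralogue, had 3 probe sets that disagreed. The brightest was at 8.19, 8.38 and 8.28 in low IL-7 cells, 12.64, 12.99 and 13.15 in +IRF4 cells, and 8.14, 8.15 and 8.22 in high IL-7 cells, a change with IRF4 of 4.75. Another was at 8.79, 8.53 and 8.69 in low IL-7 cells, 10.29, 9.84 and 9.96 in +IRF4 cells, and 10.44, 9.81 and 10.17 in high IL-7 cells, a change of -1.47 in low IL-7 cells and -0.11 with IRF4. The third differed by -0.03 and -0.06 in the same comparisons. Its transcript therefore has no single value here, and its part in the values of the set was not tested.

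The E-box was looked up in the promoters because MYC with MAX binds these letters. RefSeq promoters of GRCm38.p6 were matched for 43 of the 49 genes, leaving Bop1, Fbl, Gnl2, Npm1, Rrp12 and Rrs1. The letters CACGTG, which read alike on both strands, occurred in 10 of the 43, or 23.3%, against 10% of the 10361 promoters of genes tested on the arrays and 7.24% of all 27025 promoters. The 11 matches in those 10 promoters are shown in windows of 30 bases on the gene's strand, 5′ to 3′, in order of the gene's change in low IL-7 cells, with the E-box in capitals.
Tsr1, chr11:74898092-74898121, plus strand: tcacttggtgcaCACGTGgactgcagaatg
Utp20, chr10:88826765-88826794, minus strand: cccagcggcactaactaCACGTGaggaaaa
Pno1, chr11:17211540-17211569, minus strand: tgcgctgtacaaccacgCACGTGttcctct
Nle1, chr11:82908355-82908384, minus strand: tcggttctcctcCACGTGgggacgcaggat
Wdr43, chr17:71616220-71616249, plus strand: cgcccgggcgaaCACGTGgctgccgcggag
Nop2, chr6:125131811-125131840, plus strand: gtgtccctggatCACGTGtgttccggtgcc
Pes1, chr11:3963965-3963994, plus strand: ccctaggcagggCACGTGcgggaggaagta
Imp4, chr1:34439696-34439725, plus strand: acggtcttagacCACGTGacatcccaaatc
Ltv1, chr10:13193092-13193121, minus strand: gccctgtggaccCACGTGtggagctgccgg
Rrn3, chr16:13780472-13780501, plus strand: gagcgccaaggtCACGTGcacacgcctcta
Rrn3, chr16:13780639-13780668, plus strand: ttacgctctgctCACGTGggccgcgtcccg
Of the 11 E-boxes, 7 lay after the annotated start, at positions 3 to 38, and 9 lay within 100 bases of it. None overlapped a match to the ETS motif, the CCAAT box or the GC box. The flanking letters differed between the windows, and the Rrn3 promoter held 2 E-boxes.

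Genes with and without the E-box had nearly the same median change. The median change in low IL-7 over high IL-7 was -1.34 for the 10 with the letters and -1.33 for the 33 without, and the 10 ranged from -1.51 for Tsr1 to -0.71 for Rrn3. An ETS motif, CCGGAAG, was in 16 of the 43 promoters, or 37.2%, against 17.3% of the promoters of genes tested and 9.14% of all, and the median change was -1.19 with it and -1.41 without. The GC box, GGGCGG, was in 76.7%, against 61.6% and 35.9%, and the CCAAT box in 41.9%, against 38.4% and 38%. A motif of the factor NRF1 was also searched at first and then dropped. Its share among the members was near that of the genes tested. Both strands were searched, and a missing match says only that these letters are not within the window of 300 bases.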

How the data were processed

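Values were taken from the deposited table, which per the file headers holds an intensity for each probe set and array; per the labels, total RNA was biotin-labelled and hybridised by Affymetrix protocols. The authors' summarisation, scaling and filter are not given in the sources used here. No reads exist, so the number of arrays limits the precision.

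Intensities were converted to log2(intensity + 16). Control probe sets (64) and probe sets with several symbols (932) were left out, as were those whose mean lay below the 40th percentile (an intensity of 106). The brightest probe set stood for each gene. Group means over all 9 arrays were fitted with limma 3.58.1 in R 4.3.3, with a variance trend, Benjamini-Hochberg adjustment over 12828 genes and a threshold of 0.05. The procedure was tested on simulated data. All members of the set were described, and of each other list the 3 called genes with the largest fall and the 2 with the largest rise, plus Myc and Mycn. Twistnb, Znrd1, Ubtf and Zfp622 were named outside this rule. Members and lists were chosen with earlier results of these data known. Replicates of a group correlated at 0.986 to 0.996 and shared at most 2 identical values. Same-numbered low and high IL-7 arrays deviated together (r from 0.28 to 0.54), although 1 pair with unlike numbers also did (0.34) and the labels state no pairing. Printed values come from the fit without a replicate block; adding the block changed no call of the set between these groups. Figures and promoter searches used Python 3.11.15. Alternatives were another pseudocount, filter, normalization, variance model or probe-set rule, array weights, a replicate block, the 6 arrays compared, and leaving out each array.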

Additional observations from a re-analysis of the deposited data

How the results depend on the processing

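All 49 genes stayed lower in low IL-7 than in high IL-7 cells under all 21 alternatives, and their median change lay between -1.35 (array weights) and -1.14 (mean of a gene's probe sets). Low IL-7 over +IRF4 gave 49 genes, or 48 where Nop14 was lost. With IRF4 in high IL-7, 1 of the 49 was called, and 0 under log2(intensity + 1), without the filter, without the variance trend, with the replicate block, with the 6 arrays compared, with and without the block, and with both low-18S arrays left out. Leaving out each array gave 0 to 0. These counts turn on Ppan, whose adjusted p is at the threshold. Array weights called 11, the added genes between -0.10 and -0.29. Over all genes, array weights called 8263 in low over high IL-7, against 4783, 3248 in +IRF4 over high IL-7, against 376, and 7807 in low IL-7 over +IRF4, against 4651. With the 6 arrays compared, +IRF4 over high IL-7 gave 222 genes, and 167 with the block. Leaving out each array gave 191 to 615 there: 615 without +IRF4 replicate 1, 191 without +IRF4 replicate 2 and 204 without high IL-7 replicate 3; the cause was not tested. With the replicate block over all arrays the counts were 49, 0 and 49 for the set and 4922, 437 and 4769 for all genes. With +IRF4 cells, same-numbered arrays did not deviate together (r from -0.37 to 0.01). The labels state no pairing, so whether those samples were paired is not known. The fits without both low-18S arrays and with the block over 6 arrays were chosen after seeing the data.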
